A study of Mus musculus with 96 samples.

Results

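The 151.6 Mb viewpoint of the chromosome 4 PE-4Cseq series was examined on the C57Bl6 chromosome, with 2 libraries of the intact homologue in deletion cells (+DBl6) set against 2 libraries of the same chromosome in control cells (+Bl6). These 4 libraries, of 96 in the series, were chosen by their viewpoint, allele and line as labelled. All cells were mouse embryonic fibroblasts (MEFs), taken at confluence at passage 4, from 13.5-day embryos. Deletion embryos came from 129S5 Df/Dp chimeras crossed with C57BL/6J, and the study names F1 crosses of 129S5 and C57BL/6J as its controls. Lines 129S5E71 and 129S5E98 (E71 and E98) carried Df, a 129S5 chromosome engineered to lack part of band 4E2, so that their C57Bl6 chromosome is the undeleted one. Lines 129S5E117 and 129S5E118 (E117 and E118) carried an undeleted 129S5 chromosome (+129) beside the C57Bl6 one. Each group thus held 2 lines with 1 library each, and p-values measure the spread between lines. Both control and deletion cells are F1 hybrids, and the assay measures DNA contacts, so the fibroblast label could not be checked against expression markers.

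In PE-4Cseq, chromatin is crosslinked, cut with HindIII and ligated, and the fragments joined to 1 chosen fragment, the viewpoint, are amplified and sequenced. A viewpoint contacts its close neighbours most, and contacts fall off with distance along the chromosome. Contacts far along the chromosome often join segments of the same kind, with gene-dense segments meeting other gene-dense segments. Mouse 4E2 corresponds to human 1p36, a band lost in a developmental deletion syndrome and in several tumours. Chd5, a chromatin remodeller and tumour suppressor, lies within it.

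The viewpoint is the HindIII fragment at chr4:151607155-151611182 (mm9), 4028 bp long. It lies in an intron of Acot7, which encodes an acyl-CoA thioesterase (chr4:151552243-151645964, plus strand), and overlaps 0 annotated exons. Chd5 starts 101.6 kb downstream, where downstream means higher coordinates, away from the centromere. The fragment lies inside the interval that Df lacks, located here from the Df and +129 reads of 4 viewpoints outside it at chr4:150083826-154361190, 4.28 Mb with 48 protein-coding genes. The interval reaches 1.52 Mb upstream and 2.75 Mb downstream of the viewpoint.

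The sequences that define the bait come first, read from mm9. Each primer's genomic part is given 5′ to 3′ on its own strand, at chr4:151610726-151610747 (minus strand) and chr4:151611155-151611175 (plus strand). The HindIII end of the viewpoint, chr4:151610883-151611182, and its inner end at the last DpnII site, chr4:151610577-151610747, are given on the plus strand. Capitals mark the HindIII site AAGCTT or the DpnII site GATC. The second primer ends 7 bases before the end of the viewpoint fragment, and every captured fragment was joined at that site.
DpnII-side primer: agagacatcggtctctgatggt
HindIII-side primer: atgagggtccaatccataagc
DpnII end: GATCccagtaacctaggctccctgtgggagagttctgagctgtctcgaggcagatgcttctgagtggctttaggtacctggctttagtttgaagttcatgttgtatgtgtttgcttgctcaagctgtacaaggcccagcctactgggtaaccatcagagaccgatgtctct
viewpoint end: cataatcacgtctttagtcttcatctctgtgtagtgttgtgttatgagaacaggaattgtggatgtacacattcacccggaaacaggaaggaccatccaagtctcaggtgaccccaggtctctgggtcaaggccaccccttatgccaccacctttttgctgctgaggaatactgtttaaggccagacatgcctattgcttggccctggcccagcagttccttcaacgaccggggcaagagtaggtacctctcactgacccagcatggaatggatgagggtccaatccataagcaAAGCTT

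The partner fragments on which the results below turn are shown by their upstream ends, since a captured read can start at such a HindIII end. They are the Acot7 fragment at chr4:151572910-151578887, the Rnf207 fragment at chr4:151684575-151685666 and the fragment spanning Rpl22 and Chd5 at chr4:151703894-151717809, all close to the viewpoint. The distal ones lie in 2610109H07Rik (chr4:147472216-147477400), Plch2 (chr4:154361191-154364233) and Arhgef16 (chr4:153658959-153660293). Each line holds the 60 bases from the HindIII site, in capitals, on the plus strand.
Acot7 fragment, upstream end: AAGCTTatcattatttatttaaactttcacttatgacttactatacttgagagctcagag
Rnf207 fragment, upstream end: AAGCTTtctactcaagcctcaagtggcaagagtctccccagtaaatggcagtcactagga
Rpl22 and Chd5 fragment, upstream end: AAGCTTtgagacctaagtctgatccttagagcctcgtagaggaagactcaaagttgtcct
2610109H07Rik fragment, upstream end: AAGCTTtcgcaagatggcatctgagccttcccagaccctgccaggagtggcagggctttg
Plch2 fragment, upstream end: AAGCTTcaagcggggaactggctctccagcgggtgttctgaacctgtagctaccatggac
Arhgef16 fragment, upstream end: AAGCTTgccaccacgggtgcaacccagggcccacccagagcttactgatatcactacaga

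The +DBl6 libraries held 534666 (E71) and 2716396 (E98) chromosome 4 reads on 6949 and 6865 captured fragments, those with at least 1 read. The +Bl6 libraries held 721401 (E117) and 1277616 (E118) reads on 7644 and 8360 captured fragments. The share of reads within 20 kb of the viewpoint, mostly on the viewpoint fragment itself, was 57.4% and 74.0% in +DBl6 and 21.2% and 52.5% in +Bl6. This zone was left out of the densities, read shares and tests that follow, and its share, which was higher in both deletion lines, is given again beside the results that move with it. Per the study's methods the libraries of E71 and E117 were purified on Roche columns and those of E98 and E118 with AMPure beads, so that each purification holds 1 line of each group. In the deletion lines, 0.491% and 0.184% of all reads, zone included, were assigned to the 129S5 chromosome, which lacks the viewpoint there, against 48.5% and 50.1% in the controls.

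Some libraries made alongside each other shared more fragments than others did. This was read from fragments beyond 2 Mb of the viewpoint with at least 200 reads in a library. Of those in +Bl6 of E117, 92.8% were captured in +129 of the same line. In +DBl6 of E71, purified in the same way, 80.3% were captured, and in +DBl6 of E98 59.2%. For +Bl6 of E118 the values were 99.6% in +129 of the same line, 79.9% in +DBl6 of E98, purified in the same way, and 72.8% in +DBl6 of E71. Such fragments of +DBl6 of E98 showed no such contrast, with 67.3% captured in +Bl6 of E118 and 66.0% in +Bl6 of E117. Setting fragments to 0 where they held under 2% of the reads of such a library removed 4.00% to 7.12% of the captured fragments beyond 1 Mb, and 0.0920% to 0.312% of their reads. The read correlation at shared distant fragments was 0.347 between the +DBl6 lines and 0.326 between the +Bl6 lines (log reads, over 2700 and 3302 fragments of 1 library pair each), below the 0.9 taken as the mark of 1 set of molecules read again.

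The local domain was the same stretch of genes in all 4 libraries. Among the most read fragments outside the zone were several in Acot7 itself. The Acot7 fragment printed above, 33.3 kb upstream of the viewpoint, had the highest level in its lowest library, with 21950 and 26771 RPM in +DBl6 (E71 and E98) and 21448 and 23314 RPM in +Bl6 (E117 and E118). A second Acot7 fragment, at chr4:151579609-151583962, exceeded it in 3 of the 4 libraries, with 26219 and 31812 against 18595 and 24801 RPM. RPM is a fragment's reads per 1000000 chromosome 4 reads outside the zone. The Rnf207 fragment, 76.0 kb downstream, held 20963 and 18263 RPM in +DBl6 and 16192 and 12812 RPM in +Bl6. The fragment across Rpl22 and Chd5, 101.7 kb downstream, held 11420 and 14739 RPM in +DBl6 and 8098 and 7237 RPM in +Bl6. At the latter 2 fragments both deletion lines lay above both control lines, and at the Acot7 fragment the lower +DBl6 library lay between the controls.

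**Figure D1:**
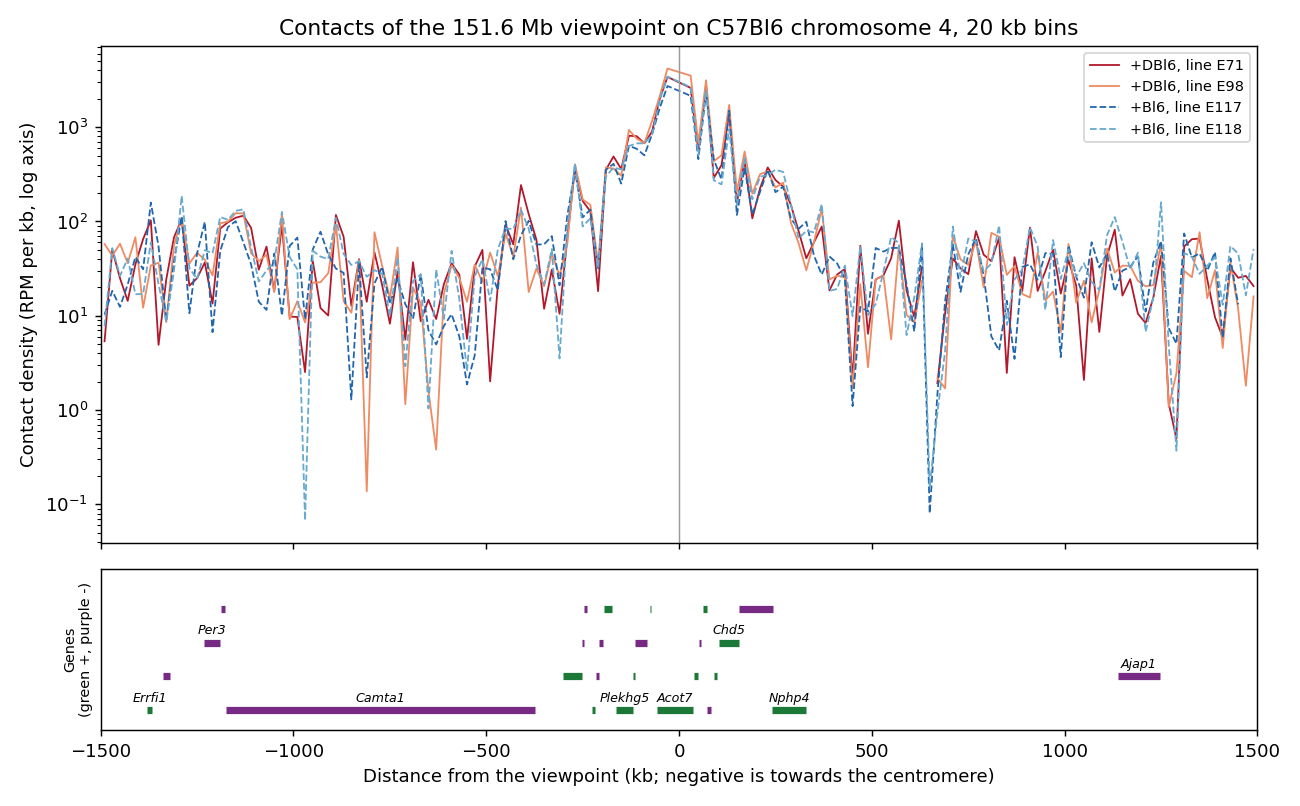
Contact density (RPM per kb, log axis) in 20 kb bins within 1500 kb of the viewpoint for the 2 +DBl6 and 2 +Bl6 libraries, with protein-coding genes below (green plus strand, purple minus strand). All 4 lines peak over Acot7 and its gene neighbours and fall to low values over the body of Camta1 upstream and a stretch without genes downstream. The zone and bins at 0 reads are not drawn.

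Genes near the viewpoint were read per kb of the fragments that overlap them. Acot7 held 2617 and 3194 RPM per kb in +DBl6 against 2114 and 2615 in +Bl6. Icmt, the methyltransferase that completes processing of prenylated proteins, held 1302 and 1666 against 1085 and 1348. Rnf207, a RING finger protein gene, held 1682 and 1615 against 1416 and 1157. These 3 were the densest genes, and E71 of +DBl6 lay below E118 of +Bl6 at Icmt while the lines did not overlap at Acot7 and Rnf207. At Acot7 this rests on 2617 RPM per kb in E71 of +DBl6 against 2615 in E118 of +Bl6.

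Chd5 held 357 and 452 RPM per kb in +DBl6 against 291 and 253 in +Bl6, and its neighbour Rpl22, a ribosomal protein gene, 668 and 886 against 585 and 456. Hes3, one of the Hes repressors of differentiation genes, held 432 and 503 against 329 and 331, and Gpr153, an orphan receptor gene, 563 and 676 against 458 and 505. At these 4 genes the lowest deletion line exceeded the highest control line. The lines overlapped at Icmt, which lies among them between Hes3 and Rnf207, and at Kcnab2, next downstream of Chd5.

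Upstream, Espn, which encodes an actin-bundling protein, held 739 and 717 RPM per kb in +DBl6 against 546 and 673 in +Bl6. Tnfrsf25, a death receptor gene, held 410 and 632 against 323 and 388. Hes2 held 92.8 and 207 against 201 and 132, with the lines overlapping. Hes2, Hes3 and Tnfrsf25 each rest on 1 fragment, which neighbouring genes may share.

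Plekhg5, the gene next upstream, held 490 and 527 RPM per kb in +DBl6 against 369 and 398 in +Bl6, again without overlap. Phf13, a gene for a reader of histone methylation 236.8 kb upstream, held 120 and 127 against 74.5 and 63.7. It was the 1 gene of the 21 within 0.5 Mb that DESeq2 called (adjusted p 0.00399). Over all genes DESeq2 called 33 of 813 (4.06%), a similar share. The edgeR adjusted p of Phf13 was 0.836. The groups overlapped at Kcnab2, a potassium channel subunit gene (251 and 314 against 230 and 276), at the cilium gene Nphp4 (159 and 136 against 133 and 193), and at the transcription factor gene Camta1 (43.6 and 36.2 against 32.3 and 44.6). Upstream of Plekhg5 they also overlapped at Nol9, Tas1r1, Zbtb48 and Klhl21, whose levels ran from 18.2 (Zbtb48) to 484 RPM per kb (Nol9). At Dnajc11 both deletion lines lay below both controls in RPM (93.6 and 97.5 against 111 and 108 RPM per kb) and overlapped them once edgeR's TMM factors, which scale each library to the others, were applied. At Thap3, with 2.51 to 4.52 RPM per kb on 1 fragment, they lay above.

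Of the 21 protein-coding genes within 0.5 Mb, 11 had both +DBl6 lines above both +Bl6 lines, 0 had both below and 10 overlapped, counted on TMM-scaled values. Over all 813 genes tested at this viewpoint, 19.1% had both deletion lines above and 18.2% both below. In RPM without these factors the 21 genes gave 11 above, 1 below and 9 overlapping, and the 813 gave 130 above and 186 below. The median log2 difference in edgeR was 0.47 over the 21 genes and 0.05 over all 813. Neighbouring genes share fragments and libraries, so their counts are not independent. The part of the zone share, higher in both deletion lines, was not tested here either. The 129S5 homologue of the control lines gave Chd5 256 and 337 RPM per kb (E117 and E118) and Rpl22 566 and 695. At both genes its E118 library lay above the +Bl6 libraries, and at Rpl22 it lay between the +DBl6 lines. It also lay between them at Acot7 (2682 RPM per kb), Plekhg5 (517) and Tnfrsf25 (570). At Chd5 and the remaining genes of the 11, both +129 libraries lay below both +DBl6 lines.

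**Figure D2:**
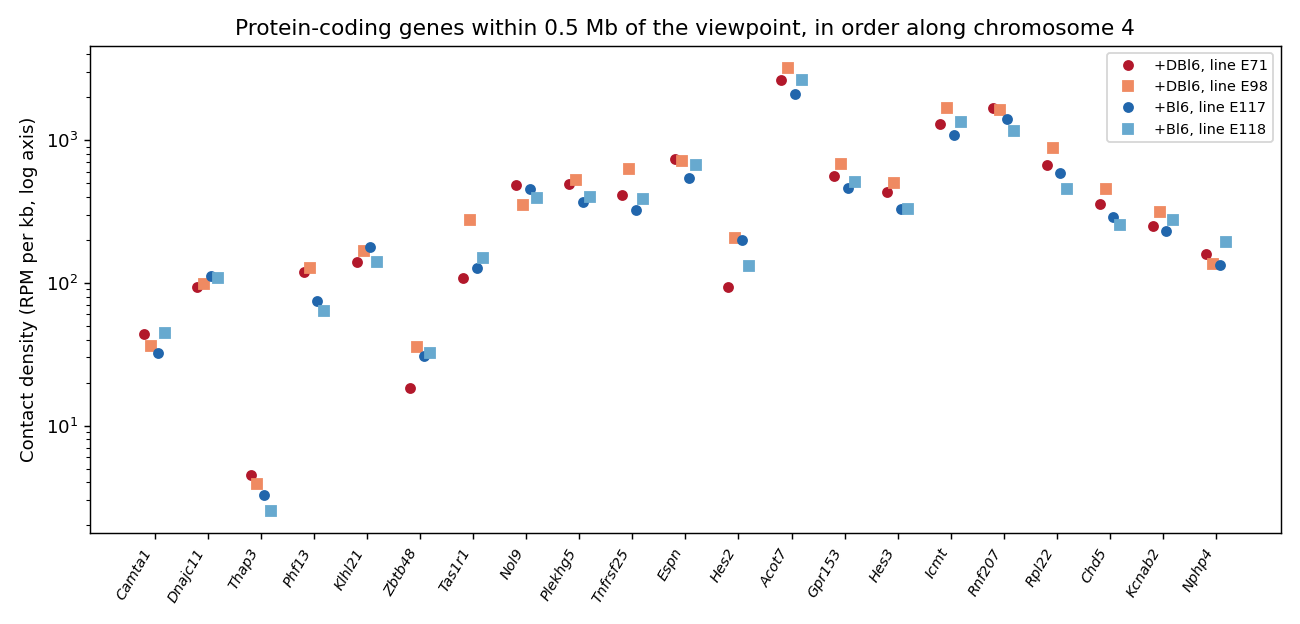
Contact density (RPM per kb, log axis) at the 21 protein-coding genes within 0.5 Mb, in chromosomal order, with 1 point per library. The 2 +DBl6 points lie above both +Bl6 points at 11 genes, mostly between Plekhg5 and Chd5.

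Contact density fell steeply with distance on both sides. Upstream it went from 3131 and 3652 RPM per kb in +DBl6 and 2533 and 3117 in +Bl6 at 20 to 50 kb to 570 and 548 against 453 and 470 at 100 to 200 kb. Downstream it went from 1942 and 2587 against 1609 and 1967 to 339 and 436 against 283 and 286 over the same distances. The upstream side was denser at 20 to 50 kb, by 1.61 and 1.41 times in +DBl6 and 1.57 and 1.58 times in +Bl6. At 50 to 100 kb the order was the opposite in all 4 libraries, with upstream over downstream at 0.722 to 0.731 in +DBl6 and 0.676 and 0.805 in +Bl6. That downstream band holds Icmt, Rnf207 and Rpl22.

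The difference between the groups was largest close to the viewpoint. Both deletion lines also had the higher zone share, and its part in this difference was not tested. The mean +DBl6 density was 1.20, 1.21 and 1.21 times that of +Bl6 upstream at 20 to 50, 50 to 100 and 100 to 200 kb, and 1.27, 1.23 and 1.36 times downstream. Both deletion lines lay above both controls in 5 of these 6 bands, the exception being the downstream band of 20 to 50 kb. From 200 to 500 kb the ratios were 1.04 upstream and 0.949 downstream, with the lines overlapping. At 1 to 2 Mb and 2 to 4 Mb downstream the ratios were 0.896 and 0.906, both deletion lines lying below both controls. The exact permutation p of each band without overlap was 0.333, the smallest that 2 lines against 2 allow, so no band could pass 0.05.

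A stretch of low contact lay on either side before contact recovered. Density at 0.5 to 1 Mb was 26.5 and 23.7 RPM per kb upstream in +DBl6 and 21.6 and 29.2 in +Bl6, and at 1 to 2 Mb it was 34.3, 32.4, 33.8 and 34.0. Downstream the values were 32.6, 27.2, 28.4 and 36.1 RPM per kb at 0.5 to 1 Mb and 43.7, 40.2, 44.7 and 49.0 at 1 to 2 Mb. The farther band was thus the denser one in all 4 libraries on both sides, by 1.16 to 1.56 times upstream and 1.34 to 1.57 times downstream. The nearer band holds 0 gene starts on either side and, upstream, only the body of Camta1. The farther band holds 10 gene starts on each side, among them Per3, Vamp3 and Park7 upstream and Ajap1 and Trp73 downstream. In +129 the ratio was 1.16 and 1.03 upstream and 1.40 and 1.48 downstream, the same direction on the other chromosome copy.

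**Figure D3:**
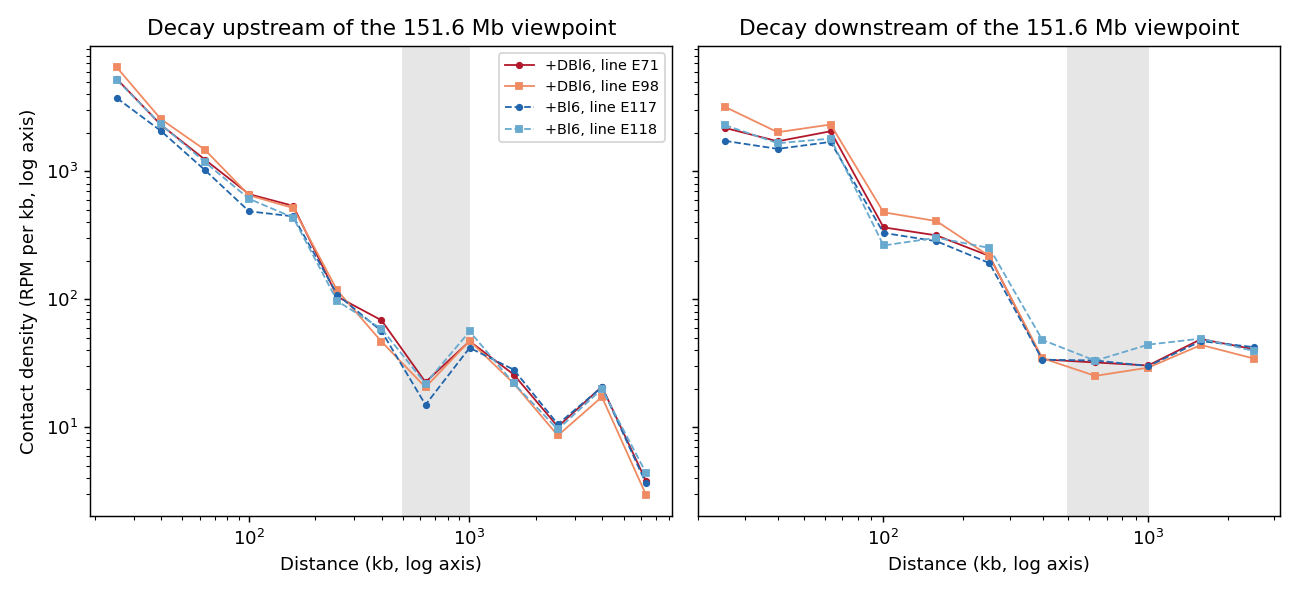
Contact density (RPM per kb) against distance from the viewpoint (kb), both on log axes, upstream at left and downstream at right, with 1 line per library and 0.5 to 1 Mb shaded. All 4 libraries fall together and are higher at about 1 Mb upstream than within the shaded stretch, and upstream they fall below it again at 2518 kb (8.66 to 10.6 RPM per kb).

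The scaling exponent, the slope of log10 density against log10 distance at 100 kb, measures how fast contacts fall off. With both sides joined it was -1.78 and -1.94 in +DBl6 and -1.75 and -1.72 in +Bl6. The groups differed by -0.12 (SE 0.087, limma adjusted p 0.765). Upstream, the exponents were -1.77 and -1.92 against -1.78 and -1.80, a difference of -0.06 (SE 0.085, limma adjusted p 0.870). Downstream they were -1.63 and -1.69 against -1.58 and -1.40, a difference of -0.17 (SE 0.092, limma adjusted p 0.508). The deletion lines had the steeper slopes downstream and with both sides joined, but no difference passed the threshold. The +129 exponents were -1.67 and -1.79 with both sides joined, and the sign of each difference depended on the stiffness of the spline.

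The balance of near and far contacts was read from shares of reads. Of the reads outside the zone, 44.1% and 49.4% lay within 1 Mb in +DBl6 (E71 and E98) and 36.9% and 42.5% in +Bl6 (E117 and E118). The means were 46.8% ± 3.73 and 39.7% ± 3.93 (SD, n = 2 each, exact permutation p 0.333). Within the column purification the deletion line was 7.21 percentage points higher, and within the bead purification 6.92. The share in the deleted interval was 56.7% ± 3.26 against 49.7% ± 4.72, and that beyond 5 Mb 34.3% ± 2.19 against 39.8% ± 3.89 (SD, n = 2 each, exact permutation p 0.333 for either). Both deletion lines lay on 1 side of both control lines in these 3 shares.

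The near share moved with the zone share. From lowest to highest, the near share ran E117 and E118 of +Bl6, then E71 and E98 of +DBl6, which is the order of the zone share. The +129 libraries, at 37.9% and 43.7% near share and 21.5% and 53.2% zone share, lay beside the +Bl6 library of the same line. The part of the zone share in the result was not tested. Counted as captured fragments in place of reads, the near share differed by 0.759 percentage points, and with the reads of each fragment capped by 1.92.

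The side of the near reads did not separate the groups. Upstream reads made up 53.0% and 50.6% of the reads within 1 Mb in +DBl6 and 51.9% and 52.0% in +Bl6, means of 51.8% ± 1.75 and 52.0% ± 0.100 (SD, n = 2 each, exact permutation p 1). The near reads were concentrated close to the viewpoint: their median distance was 88.2 and 65.4 kb upstream in +DBl6 against 94.5 and 86.0 kb in +Bl6, and 101.7 and 76.0 kb downstream against 101.7 and 126.6 kb.

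**Figure D4:**
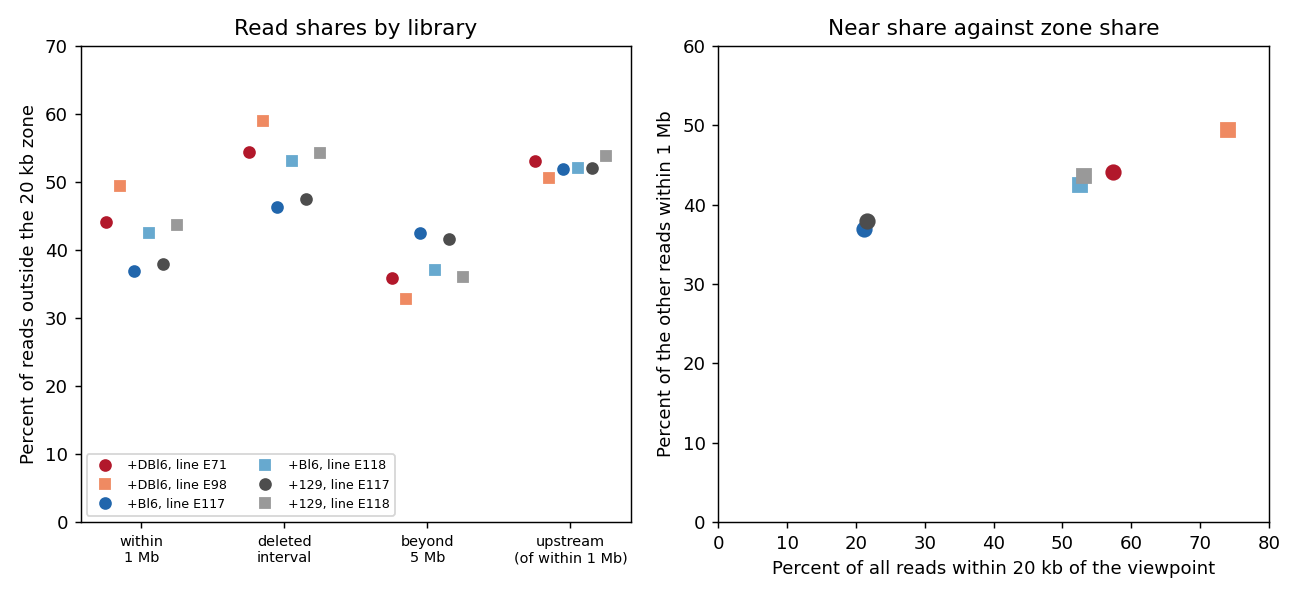
Left, percent of reads outside the 20 kb zone by library in 4 classes. Right, the share within 1 Mb against the share of all reads inside the zone, both in percent, for +DBl6, +Bl6 and +129. The near share rises with the zone share, and the 2 +DBl6 points hold the highest values of both.

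At 10 other viewpoints, with viewpoint 10 left out for its shallow control library, both +DBl6 lines lay above both +Bl6 lines in the share within 1 Mb at 7 and overlapped at 3. The zone share was above at 6 of these 10, and both were above at 5. A higher near share was therefore not particular to the 151.6 Mb viewpoint. Libraries of the same lines were used at every viewpoint. The replicate libraries of +DBl6 at viewpoints 4, 6, 7 and 8 correlated at 0.937 to 0.972 in log reads at shared distant fragments. Those of +Bl6 at viewpoint 9 correlated at 0.950. All of these exceed the mark of 0.9, and the cause was not tested. In these share counts they were still entered as 2 lines. Viewpoints 4, 6 and 9 are among the 7 above.

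No window or gene passed the test across chromosome 4. Of 1329 windows of 80 kb tested at this viewpoint, edgeR called 0 (0.0%), against 13 of 10138 over all 12 viewpoints (0.128%). At an unadjusted p under 0.05 there were 75, of which 26 were higher and 49 lower in +DBl6. Of 813 genes, edgeR called 0 (0.0%), against 9 of 6178 over all viewpoints (0.146%), and 41 had an unadjusted p under 0.05. DESeq2 called 65 windows (4.89%), 30 higher and 35 lower, and 33 genes (4.06%), 11 higher and 22 lower. Of the 65 windows, 34 had a captured fragment in every library and 18 had at least 2.

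With the purification as a block, edgeR called 3 windows (0.226%) and 6 genes (0.738%), all higher in +DBl6 and within 0.2 Mb of the viewpoint. Both deletion lines lay above both controls in 2 of the 3 windows and 5 of the 6 genes, the exceptions being the middle window below and Icmt. The windows were chr4:151520001-151600000 (Espn, Hes2, Acot7), chr4:151600001-151680000 (Acot7, Gpr153, Hes3, Icmt) and chr4:151680001-151760000 (Icmt, Rnf207, Rpl22, Chd5). Their log2 differences in that fit were 0.43, 0.44 and 0.64, with edgeR adjusted p of 0.000575, 0.00605 and 0.00015. In the first window +129 of E118 held 142288 RPM, between the +DBl6 lines (134337 and 156483). In the middle and last windows both +129 libraries lay below both +DBl6 lines. The genes were Acot7 (log2 0.47), Chd5 (0.74), Rpl22 (0.74), Plekhg5 (0.58), Icmt (0.46) and Rnf207 (0.54), with edgeR adjusted p from 9.7e-09 at Acot7 to 0.0363 at Rnf207. In the fit without the block the same 6 genes had adjusted p of 0.903 to 0.999. With only 4 libraries the block left few residual degrees of freedom. The zone share was 57.4% and 74.0% in +DBl6 against 21.2% and 52.5% in +Bl6, and its part in these calls was not tested.

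Line-consistent differences were counted by whether both +DBl6 lines lay on 1 side of both +Bl6 lines in TMM-scaled values. Windows higher in +DBl6 made up 16.1% of the 1329 and windows lower 19.3% (13.2% and 21.7% in RPM). Pooled over viewpoints 1, 2, 3, 11 and 12, 11.4% of windows and 11.1% of genes were higher in this way. Within 0.2 Mb of the viewpoint 3 of 5 windows were higher and 0 lower, with a median log2 difference of 0.47. Beyond 5 Mb, 192 of 1218 were higher and 243 lower, with a median of -0.05. From 0.2 to 1 Mb, 3 of 20 windows were higher and 2 lower (median 0.00), and from 1 to 5 Mb 16 of 86 were higher and 12 lower (median 0.01). The lean towards +DBl6 near the viewpoint thus rests on the 5 windows within 0.2 Mb.

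The 5 windows with the smallest edgeR p among line-consistent ones all missed the threshold in edgeR, while DESeq2 called all 5 (adjusted p 0.000806 to 0.0437). At chr4:120240001-120320000, which holds Ctps, the CTP synthase gene, the 4 libraries held 491 and 87.7 RPM in +DBl6 against 1388 and 1680 in +Bl6 (log2 -2.34, SE 0.69, edgeR adjusted p 0.292). At chr4:148640001-148720000, with the kinesin gene Kif1b and the ubiquitin ligase gene Ube4b, they held 575 and 484 against 2661 and 1459 (log2 -1.78, edgeR adjusted p 0.435). At chr4:154560001-154640000, with Ski and Prkcz, they held 2786 and 1674 against 7384 and 3603 (log2 -1.14, edgeR adjusted p 0.662). The other 2 were higher in +DBl6, a window without a gene at chr4:125040001-125120000 (log2 2.78) and one with Anp32b, Nans, Trim14 and Coro2a at chr4:46480001-46560000 (log2 3.91), with edgeR adjusted p of 0.549 for either. At the Ctps window +129 held 369 and 1172 RPM, so that its E117 library lay among the +DBl6 values. At the Ski window +129 held 4611 and 2381 RPM, and its E118 library lay among the +DBl6 values. At the Kif1b window (1268 and 1028 RPM) and the 2 windows higher in +DBl6, no +129 library lay among or beyond the +DBl6 values.

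A list of 24 genes studied in 1p36 deletion or flanking the interval was tested as well. In 8 both +DBl6 lines lay above both +Bl6 lines, in 2 below and in 14 they overlapped, against 19.1% above and 18.2% below over all 813 genes. In RPM without the TMM factors the list gave 8 above, 5 below and 11 overlapping, the added lower genes being Per3, Ajap1 and Trp73. In the list edgeR called 0, with 5 at an unadjusted p under 0.05, and DESeq2 called 2, Ski and Gabrd. Of the 8, 7 lie within 0.5 Mb and were described above. The other was Park7, a gene for a protein of the oxidative stress response 1.32 Mb upstream. It held 32.6 and 13.5 RPM per kb against 7.32 and 6.92. At Park7 +129 held 21.2 and 20.8, so that both of its libraries lay between the +DBl6 lines. The 2 lower genes both lie beyond the distal end of the interval. Ski, a co-repressor of TGF-beta signalling, held 30.8 and 20.6 RPM per kb in +DBl6 against 77.5 and 42.1 in +Bl6 (log2 difference of -1.04, DESeq2 adjusted p 0.026). Gabrd, a GABA receptor subunit gene, held 0.512 and 0.413 against 23.3 and 23.0 (DESeq2 adjusted p 0.00356). It rests on 2 fragments, with 2 and 5 reads in +DBl6 against 227 and 239 in +Bl6. Its +129 libraries held 0.765 and 11.5 RPM per kb, so that a control library was nearly as low as the deletion lines. The median log2 difference was 0.30 over the list and -0.09 over its 13 members beyond 0.5 Mb.

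Distal contacts were found along the whole chromosome and were shared by the libraries. Of 1858 windows beyond 2 Mb, 644 (34.7%) held at least 10 reads in each of the 4 libraries. In +129, whose libraries were not used for that choice, 87.6% of these windows held at least 10 reads in both libraries, against 27.9% of the other distal windows. The shared windows held 1.77 protein-coding genes on average and the other windows 0.772. Among windows of 20 to 29 HindIII fragments, 44.4% of those with a gene were shared and 14.6% of those without one. These contrasts were not matched for distance, whose median was 32.6 Mb for the shared windows and 95.6 Mb for the others. The +129 and +Bl6 libraries of a control line shared most of their well-read fragments, as given above, and the part of this in the 87.6% was not tested.

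The distal windows with the most contacts lay on both flanks of the interval and in its distal part. The highest lowest-library level was at chr4:147440001-147520000, which holds Agtrap, 2610109H07Rik, Mad2l2 and Fbxo6, 4.13 Mb upstream, with 6375 and 5637 RPM in +DBl6 against 4957 and 6228 in +Bl6. Next came chr4:147840001-147920000, 3.73 Mb upstream, with Mtor, the growth-controlling kinase gene, at 5054 and 6057 against 5522 and 4927. In RPM the groups overlapped in both windows, and +129 held 4470 to 5369 and 4327 to 5174 RPM. The TMM factors (1.02 and 0.873 in +DBl6, 1.11 and 1.01 in +Bl6) were not applied here and can change these orders.

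Downstream, chr4:153600001-153680000, with Megf6 and Arhgef16, held 6305 and 4965 RPM in +DBl6 against 4859 and 4846 in +Bl6. The window of Prdm16, a regulator of brown fat, at chr4:153840001-153920000 held 4537 and 4392 against 3820 and 4399. The window of Hes5, Pank4 and Plch2 at chr4:154320001-154400000, where the deleted interval ends, held 3852 and 3823 against 3389 and 3832. In RPM without the TMM factors, only the Megf6 window of these 3 had both deletion lines above both controls. The overlap at the Prdm16 window rests on 4392 RPM in E98 against 4399 RPM in E118. The Arhgef16 fragment printed above held 807 and 589 RPM in +DBl6 against 544 and 1200 in +Bl6, and the Plch2 fragment 570 and 763 against 769 and 937.

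The other 3 of the 8 highest windows were chr4:154240001-154320000 (Mmel1, Tnfrsf14), chr4:147920001-148000000 (Exosc10, Srm, Tardbp) and chr4:155120001-155200000 (Atad3a, Ccnl2), whose lowest levels in any of the 4 libraries were 3306, 3257 and 3174 RPM. The second of these holds the fragment used as the series' 147.9 Mb viewpoint, which took 69, 251, 6 and 618 reads in E71, E98, E117 and E118. Among windows ranked by captured fragments, those of Vps13d at chr4:144560001-144640000, of Casp9 and Agmat at chr4:141280001-141360000 and of Sf3a3, Inpp5b and Mtf1 at chr4:124400001-124480000 joined the Mtor and Atad3a windows. At Vps13d, a lipid transfer protein gene 7.01 Mb upstream, the captured fragments numbered 22 and 25 in +DBl6 against 29 and 29 in +Bl6, and the RPM 1281 and 1832 against 2177 and 2544. At the Sf3a3 window, 27.2 Mb upstream, the levels were 2163 and 1504 against 2909 and 1977 RPM, with the lines overlapping.

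The shared windows were not spread evenly with distance. They made up 96.2% of windows 2 to 4 Mb downstream, 66% of those 2 to 10 Mb upstream, 86.4% at 20 to 30 Mb upstream and 5.6% at 70 to 80 Mb. The block at 20 to 30 Mb took 8.43% and 7.59% of reads in +DBl6 and 9.05% and 8.81% in +Bl6, more in each library than the block at 10 to 20 Mb, with 5.75%, 5.58%, 8.10% and 6.31%. In both blocks the +DBl6 shares were below the +Bl6 shares in both lines. Distance alone therefore did not order the contacts.

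**Figure D5:**
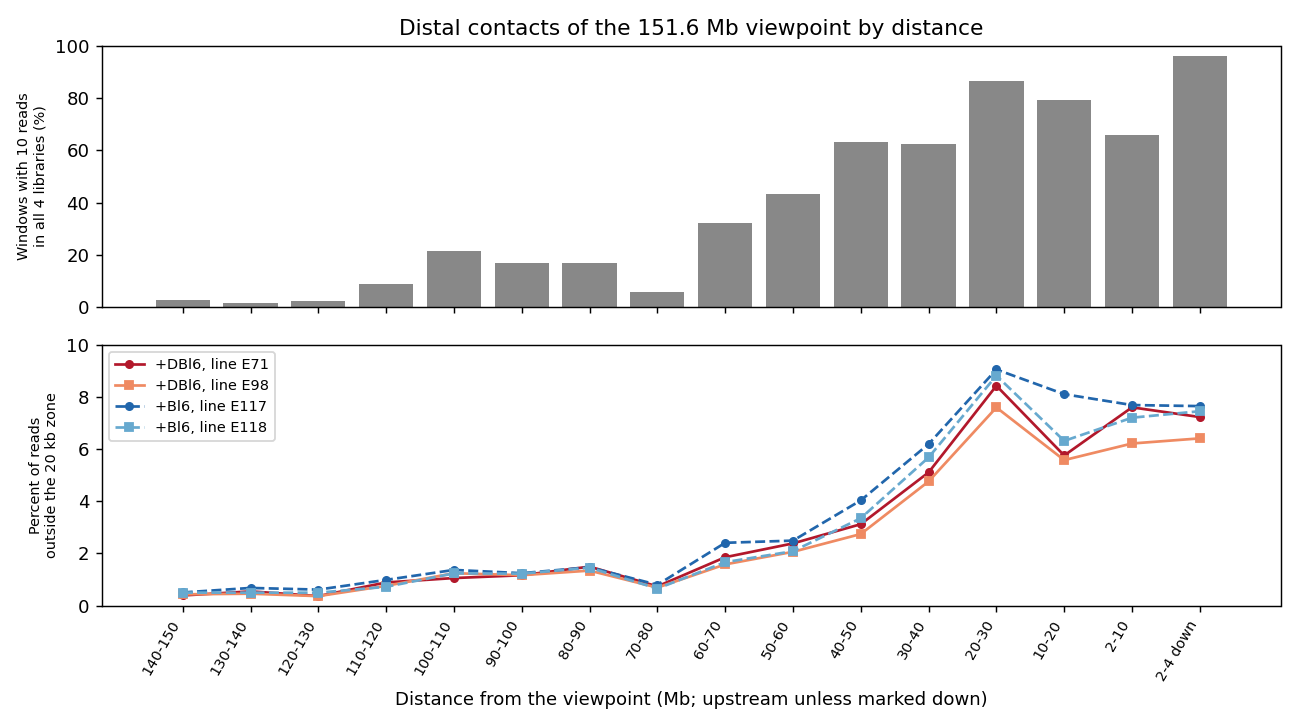
Top, percent of 80 kb windows with at least 10 reads in all 4 libraries by distance from the viewpoint (Mb). Bottom, percent of reads outside the 20 kb zone in the same blocks, 1 line per library. The libraries rise and fall together, with a peak at 20 to 30 Mb upstream and a low at 70 to 80 Mb.

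The nearest viewpoints of the series were compared on the same windows. Of the windows shared by the 4 libraries here, 56.9% were also shared at viewpoint 3 (150.4 Mb, in Vamp3), which is 88.4% of the windows shared there. For viewpoint 4 (150.9 Mb, in Camta1) the values were 38.7% and 78.1%, and for viewpoint 6 (152.1 Mb, in no gene) 25.9% and 75.3%. The libraries differed in depth and captured fragments, and the +DBl6 pairs of viewpoints 4 and 6 correlated above 0.9 and were added up. Seen from 151.6 Mb, the region around viewpoint 3, 1.18 Mb upstream, held 71.6 and 84.2 RPM per kb in +DBl6 and 54.8 and 88.8 in +Bl6. The region around viewpoint 4, at 0.620 Mb and so nearer, held 18.7 and 13.1 against 12.6 and 22.6, below the farther region in every library.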

How the data were processed

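PE-4Cseq libraries of chromosome 4 were made from MEF lines of 2 genotypes, with 1 library per line, allele and viewpoint. The authors assigned each pair to an allele by a polymorphism in the viewpoint read, trimmed the interacting read to 30 bases and aligned it with bowtie (up to 3 mismatches, unique matches) to HindIII fragments of mm9. The bowtie version was not given in the sources used here. Each deposited value is an unscaled read count of 1 HindIII fragment, with no bias correction, smoothing or scaling. The 16 deposited tables of differential regions hold the authors' own comparisons and were not used.

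Groups came from the labels. Reads within 20 kb of the viewpoint (the zone) were left out of all shares, densities and tests. RPM is reads per 1000000 chromosome 4 reads outside the zone. Lines of genes and windows were called apart on TMM-scaled values, except for the distal windows with the most contacts, which were compared in RPM. Reads were summed over 80 kb windows and over gene bodies, kept where 50% or more of a viewpoint's libraries had 10 reads or more, and compared by edgeR 4.0.16 (glmQLFit, TMM) in R 4.3.3, with 1 fit per viewpoint and Benjamini-Hochberg adjustment over all 12 viewpoints (threshold 0.05). Replicate libraries correlating above 0.9 at distant fragments were added up, but not for the shares of reads. This touched no library of the 151.6 Mb viewpoint. DESeq2 1.42.0 was an alternative. Decay exponents were slopes at 100 kb of a spline with 4 degrees of freedom through log-spaced bins, 5 per log10 unit of distance from 20 kb, tested with limma 3.58.1. This binning replaced 8 bins per log10 unit from 10 kb after those values had been seen, because very short fragments filled single bins. Shares were compared by two-sided exact permutation tests. The scripts were tested on simulated data. Other alternatives were another window size, filter, zone, counting of captured fragments, capped reads, the purification batch as a block, and leaving out each library.

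Genes named are all protein-coding genes within 0.5 Mb (the 10 nearest with every value) and a list of 24 genes of the interval and its flanks. Windows named are those called or, with under 5 called, also the 5 with the smallest p among those whose lines did not overlap. Distal windows named are the 8 with the highest lowest-library RPM and the 5 with the most captured fragments. The members, lists and tests were chosen with earlier results of these data known. Reads carried no molecular identifiers, so Wilson 95% intervals cover counting error only.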

Additional observations from a re-analysis of the deposited data

Results flagged for a closer look

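The Df libraries of the 151.6 Mb viewpoint were used in no comparison, since the deleted chromosome lacks this viewpoint. They nevertheless held reads, on 797 captured fragments in line E71 and 797 in line E98, which is why they are listed here. The reads numbered 2636 and 4996, zone included, and 71.2% and 80.8% of the captured fragments outside the zone held a single read. Of their captured fragments beyond 1 Mb, 93.2% (E71) and 92.5% (E98) were also captured in the +129 library purified in the same way, of E117 and E118, against 59.5% and 59.7% in the other +129 library and 63.1% and 68.7% in +DBl6 of the same line. The cause of this sharing was not tested.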

How the results depend on the processing

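Of 115 alternative values, 93 were classed as the same, 13 as moved in size and 9 as reversed in sign. Counts were classed by size, shares by sign and size, and exponents by sign and side of the threshold. Windows called numbered 65 with DESeq2, 1 with no filter, 3 with the purification as a replicate block and 0 to 1 when a library was left out (1 without E118 of +Bl6). Genes called numbered 33, 1 and 6 in the same settings and 0 when any library was left out. The exponent difference was 0.0446 (both sides), 0.0351 (upstream) and 0.106 (downstream) with 6 degrees of freedom, and downstream 0.0575 with 5 and 0.0213 with captured fragments. Leaving out each library gave -0.20 to -0.04 for both sides, -0.13 to 0.0181 upstream (0.0181 without E98) and -0.25 to -0.08 downstream, and the limma adjusted p stayed between 0.306 and 0.999 in every alternative on any side. The share difference within 1 Mb was 0.759 percentage points with captured fragments and 1.92 with capped reads, and 4.28 to 9.85 with a library left out. In the deleted interval it was 1.56 with captured fragments and 3.61 to 10.3 with a library left out, and beyond 5 Mb -8.25 to -2.75. Capped reads gave 3.16 in the deleted interval and -2.62 beyond 5 Mb, where captured fragments gave -2.44. The upstream share difference was 0.153 with a 50 kb zone, 0.991 with captured fragments and -1.40 to 1.08 with a library left out (1.08 without E98). Distal windows numbered 364 at 50 reads and 698 to 765 with a library left out. Removing fragments under 2% of a library made alongside, and bins from 10 kb at 8 per log10 unit, were chosen after seeing the data and reversed no value, and so was RPM without the TMM factors, which gave 1 lower gene in place of 0 within 0.5 Mb and 5 in place of 2 in the list. The cause of these changes was not tested. The zone took up to 74.0% of reads, and 2 lines per group limit each test.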
